A study of Mus musculus with 6 samples.

Results

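Forkhead genes encode transcription factors that share a winged-helix DNA-binding domain. The members examined were the protein-coding genes on chromosomes 1 to 19 whose symbol is Fox, a letter and a number, without the Foxo genes. This rule took 38 of 20661 protein-coding genes on these chromosomes and used no peak. The peaks came from ChIRP, a method that pulls down an RNA and the DNA attached to it with biotin-labelled probes, applied to the long non-coding RNA LncMyoD. Myotubes of C57BL/6 mice were made from primary myoblasts kept for 2 days in 2% horse serum. Odd probes, even probes and input DNA (target none) made up 3 groups of 2 replicates, 6 samples in all. All groups share the strain, cell type and serum change, and no sample from undifferentiated myoblasts or without LncMyoD was analysed here. The deposited lists of peaks, 1 for each replicate, stand for all libraries of a replicate as far as the labels tell, so pools and input could not be set against each other.

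Most forkhead factors bind DNA as monomers, through a helix that reads a short AT-rich element. The FoxA proteins are the textbook pioneer factors because they can bind that element on closed chromatin. Family members direct the formation of endoderm, somites, vessels, nervous system and many epithelia, and most are silent outside their own lineage. In skeletal muscle the best known are the Foxo genes of atrophy, which lie outside the rule, and Foxk1, which is expressed in muscle progenitor cells.

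The lists held 157214 peaks in replicate 1 and 179630 in replicate 2. Sequencing depth is not given in the sources used here. A shared region was the union of peaks of both lists that overlapped by at least 1 bp, and 91707 of these lay on chromosomes 1 to 19. Fold is the authors' enrichment at a peak's summit and is used within its list. A region's place is its order among 97115 regions when the percentiles of its −log10 q in replicate 1 and in replicate 2 are averaged (place 1 is the strongest). No replicate spread exists beyond the pair of lists, and the labels do not say whether they came from separate cultures.

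LncMyoD regions were found near most forkhead genes, their folds were mostly modest, and their presence followed gene length. Within 5 kb of the gene span, 26 of the 38 carried a shared region (68.4%, 95% exact binomial interval 51.3 to 82.5%), against 72.2% of the 20623 other protein-coding genes. Forkhead genes are short: their median span was 4042 bp, against 17513 bp, and 22 of them were under 5 kb. Among other genes with a span within 20% of each member's, 65.2% had a shared region, which corresponds to 24.8 of 38. The members' count was therefore close to that of genes of their own length, and it is a description, with no test.

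A peak of replicate 1 lay within 5 kb of 31 members (81.6%, interval 65.7 to 92.3%, against 80.6% of other genes). A peak of replicate 2 did so at 27 members (71.1%, interval 54.1 to 84.6%, against 84.3%). At genes of matched length these shares were 74.1% and 79.1%. Each interval includes the share of other genes and that of matched length. The longer list thus had fewer forkhead genes near a peak than the shorter one. Foxi1, Foxi2, Foxh1 and Foxl2 had a peak of replicate 1 and none of replicate 2 in this window, and no member had the reverse. Peaks of both lists were in the window of 27 members and of 77.0% of other genes. Beside their 80.6% and 84.3%, more other genes thus had replicate 2 alone than replicate 1 alone. No peak of either list lay within 5 kb of 7 members (18.4%, interval 7.74 to 34.3%), against 12.1% of other genes and 16.7% of genes of matched length.

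By length, 12 of 22 members under 5 kb had a shared region (54.5%), against 45% of other genes of that class. A class is not matched in length to the members in it. Among genes within 20% of the length of each of these 22, the share ran from 45.2% (Foxs1) to 57.3% (Foxj1). Between 5 and 20 kb it was 3 of 5, against 67.4%. All 8 members of 20 to 100 kb had one, against 84.9%, and so did the 3 members of 100 kb or more, against 99.2%. Members without any peak were found below 20 kb only: 5 of the 22 shortest (against 32.8% of other genes) and 2 of the next 5 (against 12%). For the 22 shortest, the share without a peak among genes within 20% of each length ran from 19.1% (Foxj1) to 34.5% (Foxs1). The exact intervals of the members are wide in every class and include the share of the other genes, as the plot by gene length shows.

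**Figure D1:**
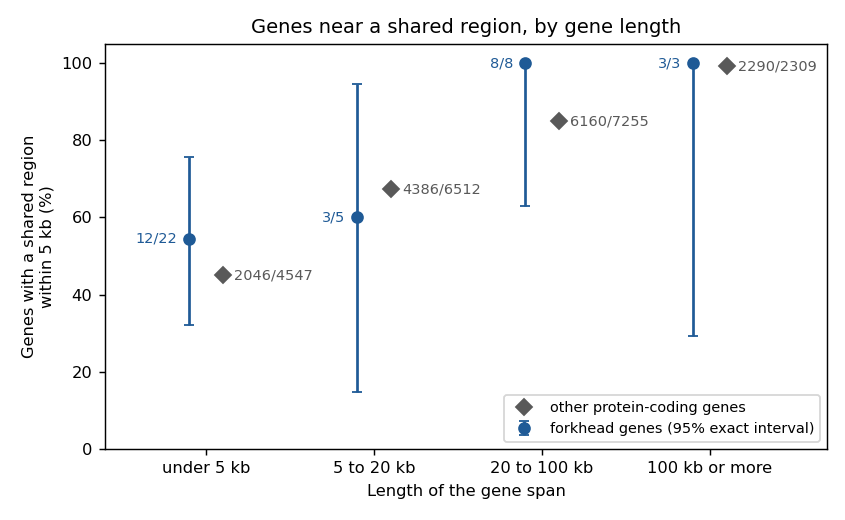
Percentage of genes with a shared region within 5 kb, by length of the gene span. Circles are forkhead genes with 95% exact binomial intervals, diamonds are the other protein-coding genes of chromosomes 1 to 19, and the fractions are gene counts. The share rises with length in both, and each forkhead interval includes the diamond of its class. Genes within a class are not matched in length to its forkhead genes.

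The transcription start is where a factor's gene is switched on, and RefSeq promoter sequences (GRCm38.p6, 250 bases before to 50 bases after a start) were on hand for 24 of the 38 members. A shared region lay within 1 kb of a start at 8 of these 24 (Foxa2, Foxa3, Foxc1, Foxe3, Foxj3, Foxk2, Foxp1 and Foxr1), against 19.1% of 16432 other genes with a start in the table. It overlapped the 300 bases themselves at 4, against 11.1%. These 4 promoters are shown because they are the ones that LncMyoD regions cover. The region covers all 300 bases at Foxa3 and Foxc1 and a part of them at Foxj3 and at the Foxp1 start nearest to its upstream end. Capitals mark the forkhead element GTAAACA (searched on both strands) or the E-box CAGCTG, a site of myogenic bHLH factors that reads the same on both strands. The sequences run 5′ to 3′.
Foxa3 (chr7:19023490-19023789, minus strand): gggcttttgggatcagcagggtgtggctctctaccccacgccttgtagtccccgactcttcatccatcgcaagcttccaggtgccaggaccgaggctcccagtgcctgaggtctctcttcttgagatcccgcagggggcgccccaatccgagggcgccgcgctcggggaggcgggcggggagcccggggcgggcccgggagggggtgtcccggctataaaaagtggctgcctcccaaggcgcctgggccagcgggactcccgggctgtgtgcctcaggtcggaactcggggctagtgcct
Foxc1 (chr13:31806396-31806695, plus strand): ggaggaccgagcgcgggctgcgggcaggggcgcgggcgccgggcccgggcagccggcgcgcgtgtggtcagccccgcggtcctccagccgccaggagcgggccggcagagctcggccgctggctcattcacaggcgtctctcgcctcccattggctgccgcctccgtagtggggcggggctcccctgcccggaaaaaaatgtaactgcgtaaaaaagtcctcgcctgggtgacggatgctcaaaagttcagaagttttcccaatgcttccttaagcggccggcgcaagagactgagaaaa
Foxj3 (chr4:119539411-119539710, plus strand): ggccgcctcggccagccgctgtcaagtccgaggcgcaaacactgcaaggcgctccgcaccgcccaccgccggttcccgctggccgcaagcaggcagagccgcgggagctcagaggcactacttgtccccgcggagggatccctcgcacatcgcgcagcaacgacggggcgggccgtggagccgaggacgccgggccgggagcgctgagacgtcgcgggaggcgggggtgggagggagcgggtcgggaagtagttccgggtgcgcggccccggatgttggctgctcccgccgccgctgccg
Foxp1 (chr6:99520944-99521243, minus strand): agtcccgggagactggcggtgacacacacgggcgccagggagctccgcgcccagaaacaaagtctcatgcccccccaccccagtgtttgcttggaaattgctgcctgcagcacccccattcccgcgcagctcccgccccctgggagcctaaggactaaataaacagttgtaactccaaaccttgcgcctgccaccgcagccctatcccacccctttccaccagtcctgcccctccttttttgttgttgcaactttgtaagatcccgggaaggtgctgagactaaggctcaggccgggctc

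For comparison, the promoters of a pair of members with no peak within 5 kb follow. They are shown because each holds 1 match, which none of the 4 covered promoters does. Foxd1 and Foxd2, also without a peak within 5 kb, have promoters on hand that hold no match. Foxn1, Foxp4 and Foxr1 have a match in the promoter and a shared region within 5 kb of the span.
Foxa1 (chr12:57546062-57546361, minus strand): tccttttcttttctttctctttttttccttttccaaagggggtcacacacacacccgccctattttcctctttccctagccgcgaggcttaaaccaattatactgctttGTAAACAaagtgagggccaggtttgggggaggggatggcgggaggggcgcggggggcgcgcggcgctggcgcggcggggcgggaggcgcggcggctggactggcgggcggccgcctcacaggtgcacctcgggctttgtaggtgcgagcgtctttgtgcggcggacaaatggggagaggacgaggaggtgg
Foxf2 (chr13:31625566-31625865, plus strand): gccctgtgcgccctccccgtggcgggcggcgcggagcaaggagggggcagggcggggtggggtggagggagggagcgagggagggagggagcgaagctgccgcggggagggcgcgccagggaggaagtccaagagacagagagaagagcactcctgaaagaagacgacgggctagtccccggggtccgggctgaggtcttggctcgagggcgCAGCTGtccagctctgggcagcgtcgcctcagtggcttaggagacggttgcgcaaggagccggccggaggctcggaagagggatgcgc

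The element GTAAACA was in 1 of 24 member promoters (Foxa1), against 2.95% of 16432 others, and CAGCTG in 4 of 24 (Foxf2, Foxn1, Foxp4 and Foxr1), against 15.2%. For motifs and GC content, the start nearest to the gene's end was used where a gene has several, while the counts of 8 and 4 above took any listed start, as did their 19.1% and 11.1%. The motifs do not overlap each other in these sequences, and a match here describes letters, not binding. Member promoters were rich in G and C: the median GC content was 64.2% (49 to 79.3%), against 56.7% for other genes. Over all promoters, the share with a shared region within 1 kb of that single start rose with GC content, from 8.82% below 45% GC to 23.2% at 65% GC or more. Of the 12 members at 65% GC or more, 4 had such a region. At 55 to 65% GC it was 3 of 8 members (against 19.9% of all promoters), and at 45 to 55% GC 0 of 4 (against 16.1%). The part of GC content in these counts was not tested.

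The members best known from skeletal muscle and its progenitors are Foxk1, Foxk2, Foxj3, Foxp1 and Foxm1. Each had a shared region in the 5 kb window (5 of 5), where genes of matched length give 4.45, so the count was near the background. All but Foxm1 are 49914 bp or longer, a length at which most genes have one.

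Foxk1 encodes a repressor of muscle progenitor cells that works with the Sin3 complex. It spans chr5:142401497-142462015 and had 10 peaks of replicate 1 and 11 of replicate 2, of which 5 in each list had a partner and made 5 shared regions. The strongest, at chr5:142455539-142456942 near the higher-coordinate end of the gene, had folds of 25.7 in replicate 1 and 42.0 in replicate 2 and took place 11336. The other 4 regions had folds of 5.51 to 13.97 in replicate 1 and 6.49 to 19.1 in replicate 2, so a single region stood out. A peak of 19.8-fold in replicate 1 inside the gene had no partner in replicate 2.

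Foxk2, the paralog of Foxk1, had 4 shared regions and its signal was lower. The best, chr11:121260580-121263366, lay 593 bp inside the gene from its start, with folds of 15.8 and 12.7. At 2787 bp it was the widest region near any member, where the median was 653 bp. Counted per 100 kb of window, Foxk1 had 7.09 and Foxk2 6.68 shared regions, against a median of 4.04 in other genes of 20 to 100 kb. The paralogs thus had similar densities, and the highest folds of Foxk1 were above those of Foxk2 in both lists.

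Foxj3 encodes an activator of Mef2c in muscle. Its 4 shared regions included 1 over the transcription start, chr4:119539446-119540096, with folds of 7.35 and 8.65. The strongest region lay 4093 bp beyond the gene's downstream end (16.9 and 16.8-fold), and inside the span no shared region passed those 7.35 and 8.65. Foxm1, which drives genes of mitosis, had 1 shared region 4405 bp outside its span (7.79 and 16.1-fold) and no peak over the gene.

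Foxp1 encodes a repressor that acts in heart, lung, blood and muscle. It is the longest member (chr6:98925342-99522746, 597405 bp) and carried the strongest region within 5 kb of any of them. That region, chr6:99158967-99160308, had folds of 41.1 and 58.7 and took place 4126. Of its 15 shared regions, 5 reached 20-fold in both lists, the next 4 at 38.9 and 36.8, 29.0 and 28.1, 26.8 and 26.9, and 24.6 and 21.9. The region over its outermost listed start, chr6:99520967-99521418, was of 10.3 and 13.9-fold. Within its length class the gene was not dense: it had 2.47 shared regions per 100 kb, against a median of 3.50 in other genes of 100 kb or more. A stronger region stood outside the gene, 18546 bp upstream (chr6:99541292-99544026), with folds of 96.6 and 71.3 and place 153.

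The other long members showed different layouts along the gene. Foxn3, a forkhead repressor of checkpoint and metabolic genes (chr12:99190081-99563667), had the most shared regions, 17, spread over the gene with 8 in the lower-coordinate part and 9 in the upper. Its best regions were at chr12:99523661-99525766 (48.0 and 38.9-fold) and chr12:99197178-99198872 (27.2 and 44.2-fold). Its density, 4.43 per 100 kb, was at the 68.4th percentile of other genes of 100 kb or more.

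Foxp2, known for its part in speech and motor circuits, had 7 shared regions over a span of 540629 bp. All 7 lay in the lower-coordinate part of the gene, and the last 296747 bp (54.9% of the span) held none. In that stretch replicate 1 had 5 peaks and replicate 2 had 8, without an overlap between the lists. Its strongest region, chr6:14929509-14930602, had folds of 23.2 and 27.0. The density of 1.27 per 100 kb was at the 6.28th percentile of genes of this class. The longest stretches without a shared region were shorter in Foxp1 (120401 bp) and Foxn3 (62163 bp). Together the 3 long genes held 39 of the 84 shared regions within 5 kb of a member.

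**Figure D2:**
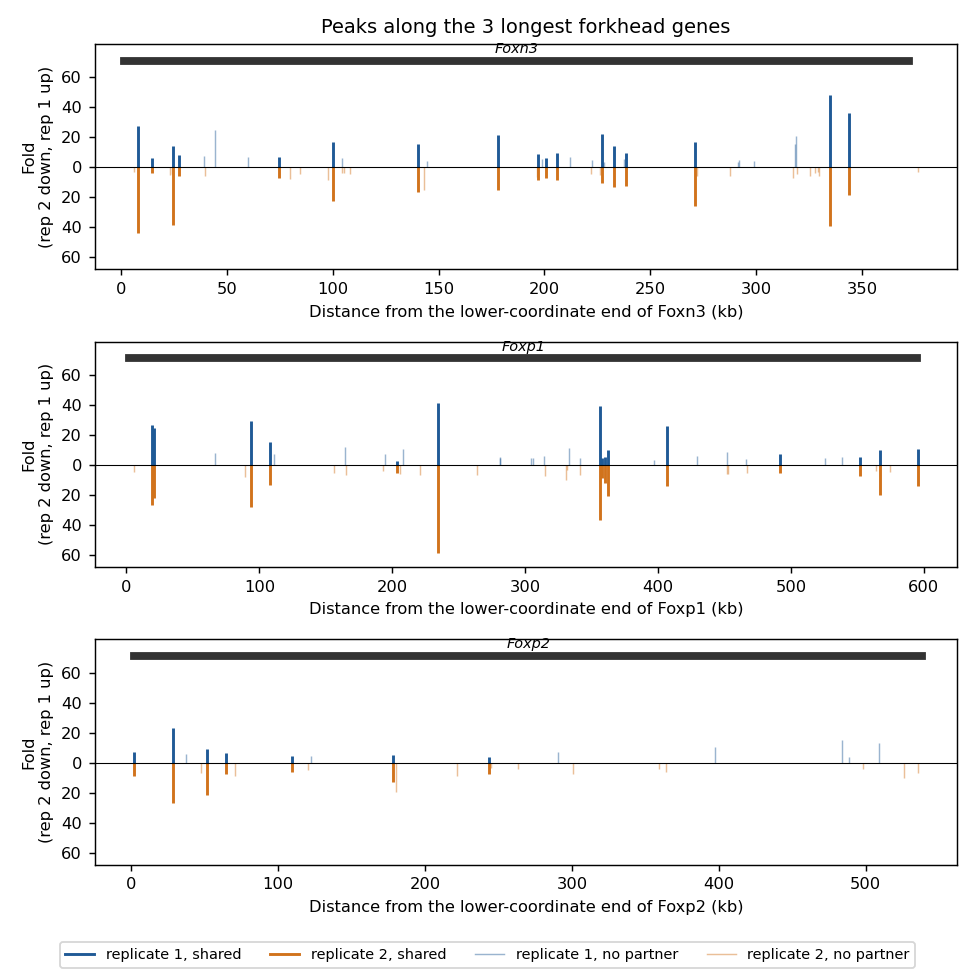
Peaks along Foxn3, Foxp1 and Foxp2, by distance in kb from the lower-coordinate end of each gene. Lines up are folds of replicate 1 and lines down folds of replicate 2, with thick lines for shared regions, thin pale lines for peaks without a partner and the bar for the gene. Foxn3 and Foxp1 carry shared regions in both the lower- and the upper-coordinate part, with stretches of up to 62163 and 120401 bp without one. In Foxp2 the last 296747 bp hold unpartnered peaks only.

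Foxp4, a lung and neural relative of Foxp1 of 57500 bp, had 4 shared regions and all were weak, the best at 7.52 and 5.87-fold. It also had a peak of 24.6-fold in replicate 1 and another of 19.1-fold in replicate 2, each without a partner. The strongest peak of either list at Foxp4 was therefore not found in the other.

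Forkhead genes of mesoderm, vessels and smooth muscle had a shared region within 5 kb at 3 of 9 (33.3%, interval 7.49 to 70.1%), where the share of genes of matched length, 53.7%, gives 4.83 and lies within that interval. In 5 of 9 there was no peak in either list (Foxc2, Foxd1, Foxd2, Foxf2 and Foxq1), where matched length gives 2.22. Of these 9 genes all but Foxf2 are under 5 kb. The role groups were drawn up from textbook knowledge, some assignments are approximate, and the counts carry no test.

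Foxc1, a regulator of somites, vessels and eye, had the strongest region of the group within 5 kb. It had 2 shared regions, 1 over the start and promoter shown above (chr13:31805760-31806730, 6.09 and 6.49-fold) and 1 inside the gene (chr13:31807423-31809281). The inner region reached 16.5-fold in replicate 1 and 42.9-fold in replicate 2, so the lists gave it unlike heights. Foxf1, needed for gut and lung mesenchyme, had a narrow region of 305 bp over its lower-coordinate end with 12.1 and 5.25-fold. Foxs1, expressed around vessels, had a shared region of 6.48 and 5.56-fold, while its highest peaks, of 22.0 and 19.1-fold in replicate 1, had no partner. Foxl1, a gene of gut mesenchyme, had 2 peaks of replicate 1 (up to 7.63-fold) and 1 of replicate 2 (5.25-fold), none overlapping.

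Several of these genes lie in clusters. In those of chromosomes 8 and 13 the strongest shared regions stood between forkhead genes, whose spans fill only a small part of each cluster. In the pair of Foxd2 and Foxe3 on chromosome 4, the only shared region lay over Foxe3. Foxf1, Foxc2 and Foxl1 follow each other on chromosome 8, and the 56259 bp that hold them with 5 kb on either side had 3 shared regions. The strongest, chr8:121094830-121097119, lay 6676 bp beyond Foxf1 and 19052 bp from Foxc2. It reached 51.8-fold in replicate 1 and 51.7-fold in replicate 2 and took place 3059. Another, chr8:121097939-121099806, followed at 29.7 and 41.1-fold, 16365 bp from Foxc2. No member had either of them within 5 kb. Both lie over Mthfsd, a protein-coding gene at chr8:121091628-121108413 between Foxf1 and Foxc2.

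The cluster of Foxq1, Foxf2 and Foxc1 on chromosome 13 spans 262466 bp with 10 shared regions, and the gene table lists no other protein-coding gene there. Foxf2, a gene of gut and craniofacial mesenchyme, had no peak within 5 kb, and the nearest shared region, 23203 bp away at chr13:31654609-31656451, was the strongest of the cluster. Its folds were 57.3 and 56.8 and its place was 2089. Between Foxq1 and Foxf2 a region at chr13:31595869-31597780 reached 37.7 and 17.5-fold. Foxq1, an epithelial and vascular regulator, had its nearest shared region 15355 bp away.

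**Figure D3:**
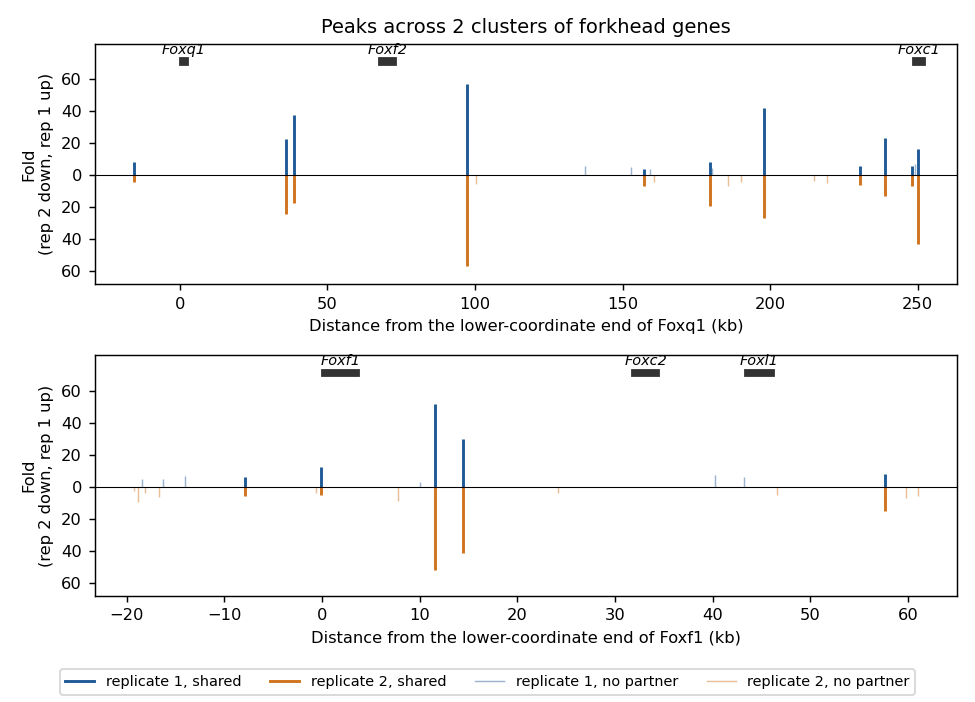
Peaks across the Foxq1, Foxf2 and Foxc1 cluster and the Foxf1, Foxc2 and Foxl1 cluster, by distance in kb from the lower-coordinate end of the first gene, with replicate 1 up, replicate 2 down and bars for the forkhead genes. The highest shared regions (57.3 and 56.8-fold above, 51.8 and 51.7-fold below) stand between forkhead genes, the lower one over Mthfsd, which is not drawn.

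Foxd2 and Foxe3 neighbour each other on chromosome 4. Foxe3, a lens gene, had a region of 7.71 and 13.0-fold over its span (chr4:114924865-114925926), and it was also the shared region nearest to Foxd2, 15967 bp off. Foxd1, a gene of kidney stroma, had its nearest shared region 7968 bp away (12.9 and 5.25-fold), and 23103 bp away on the other side stood a region of 51.5 and 68.3-fold with place 1031. Only 2 shared regions lay within 100 kb of Foxe3 and 3 within 100 kb of Foxd2, so this pair was in sparse surroundings.

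Of the endoderm pioneer genes, 2 of 3 had a shared region within 5 kb (1.85 from matched length). Foxa3 had the strongest of the 4 regions over a listed promoter, chr7:19023450-19024413, with folds of 35.6 and 28.1 and place 11446. Foxa2 had a region of 2098 bp inside the gene (chr2:148043054-148045151, 13.96 and 20.1-fold). Foxa1 had no peak within 5 kb. The shared region nearest to it lay 6722 bp away with unlike folds of 4.77 and 28.2, and 41514 bp away a region of 94.8 and 73.2-fold took place 122.

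Genes of nervous system and neural crest had a shared region at 6 of 7, where matched length gives 4.54. Besides Foxp2 and Foxp4 they were Foxd3, which specifies neural crest (23.3 and 9.88-fold, 2146 bp upstream of the start), Foxb1 (7.71 and 12.05-fold, over the gene), Foxb2 (9.92 and 8.34-fold, 4318 bp upstream) and Foxd4. Foxd4 had 3 shared regions around a span of 2074 bp, the most of any member under 5 kb. Their folds were low, from 4.97 to 8.33 in replicate 1 and 10.8 to 13.9 in replicate 2.

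Among genes of epithelia, placodes, cilia and lens, 5 of 8 had a shared region (4.80 from matched length), and all 8 had a peak of replicate 1 (5.66 from matched length). Foxn1, the thymus and hair follicle regulator disrupted in nude mice, was the strongest, with 4 regions. The best of these was at chr11:78382096-78383050 (29.2 and 42.2-fold, place 7507). Foxj2 followed with 24.2 and 22.5-fold over the gene. Foxi3, a placode and ectoderm factor, had 11.0 and 14.2-fold 2911 bp downstream, and the thyroid factor Foxe1 4.41 and 9.88-fold over the gene. Foxi1, needed for inner ear and kidney ionocytes, Foxi2 and the ciliogenesis factor Foxj1 had only unpartnered peaks, of at most 6.98, 5.88 and 5.88-fold in replicate 1 and 4.32-fold at Foxj1 in replicate 2.

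Of the remaining members, 5 of 6 were near a shared region, where matched length gives 4.30. The ovary factor Foxl2 had a region of 33.1 and 21.9-fold 4661 bp downstream. Its replicate 2 peak lay outside the 5 kb window, and the region counted because its replicate 1 part reached in. Foxn4, a retina and spinal cord factor, had 3 regions of up to 10.7 and 8.96-fold. Foxn2 had 2, of 6.98 and 8.03-fold at best, and Foxr1 had 1 of 6.24 and 6.18-fold. Foxh1, the partner of Smad proteins in Nodal signalling, had a single unpartnered peak of 3.58-fold.

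**Figure D4:**
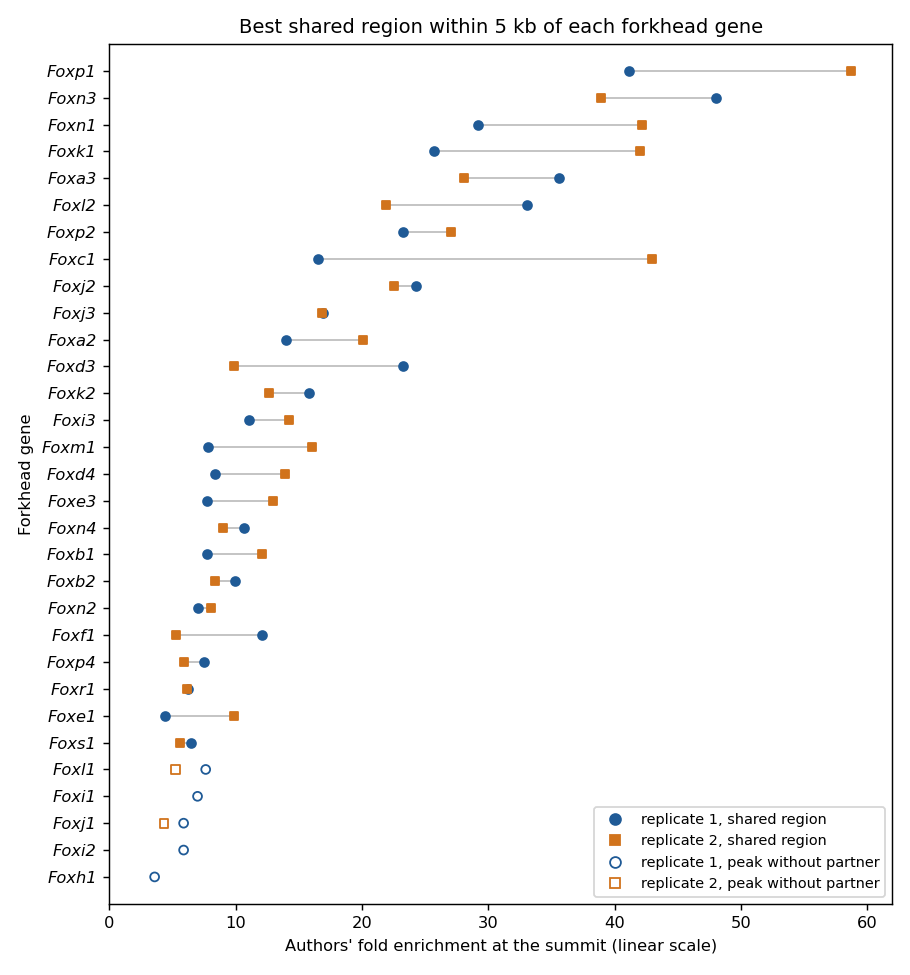
Authors' fold enrichment (linear axis) of the best shared region within 5 kb of the 31 forkhead genes with a peak there, circles for replicate 1 and squares for replicate 2, ordered by mean percentile of −log10 q. Open symbols are the best peaks of genes with unpartnered peaks only. Foxp1 leads with 41.1 and 58.7-fold.

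The 5 kb rule leaves genes close to its border. Just inside were Foxl2 (4661 bp to the nearest shared region), Foxm1 (4405 bp) and Foxb2 (4318 bp). Those just outside included Foxh1 (5827 bp) and Foxa1 (6722 bp). With a window of 10 kb, 30 members had a shared region (78.9%, against 81.4% of other genes and 77.6% of genes of matched length). With 50 kb all 38 did, against 98.2% and 97.8%, so both counts were near the background.

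The regions near members had lower median folds than all regions of these chromosomes. Their 84 shared regions had a median fold of 8.57 in replicate 1 and 11.3 in replicate 2, against 10.8 and 12.05 over all regions of chromosomes 1 to 19. Folds of at least 20 in both lists were found in 15.5% of them, against 20.7% of all. Of the peaks within 5 kb of a member, 89 of 160 in replicate 1 had a partner (55.6%), against 67.9% of all peaks of that list on these chromosomes. In replicate 2 it was 86 of 170 (50.6%, against 57.7%). Foxn3, Foxp1 and Foxp2 held 81 and 93 of these peaks, and there 41 (50.6%) and 40 (43.0%) had a partner. At the other 35 members it was 48 of 79 (60.8%) in replicate 1 and 46 of 77 (59.7%) in replicate 2, the latter above the share of all peaks. In replicate 2 the share was thus below that of all peaks at the 3 long genes and not at the other 35 members. For other genes of 100 kb or more, 66.8% of gene-peak pairs in replicate 1 and 55.6% in replicate 2 had a partner. For other genes under 100 kb it was 69.6% and 57.9%. The 3 long genes were below their length class in both lists. The other 35 members were below other genes under 100 kb in replicate 1 and above them in replicate 2. Peaks at the members also had lower median folds than all peaks in both lists (7.16 against 8.08 in replicate 1, and 7.10 against 8.13 in replicate 2). The part of peak strength in the lower partnered share was not tested.

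A region of at least 20-fold in both lists lay within 5 kb of 8 members (21.1%): Foxa3, Foxj2, Foxk1, Foxl2, Foxn1, Foxn3, Foxp1 and Foxp2. The share was 31.3% of all other genes and 26.8% of genes of matched length. Within 100 kb such a region was found for 35 members (92.1%), against 85.5%, the exceptions being Foxb2, Foxd3 and Foxi3. The strongest region within 100 kb lay beyond the 5 kb window for 31 members. The share of other genes for this was not computed, and for a short gene that window is a small part of the stretch searched. All 12 members without a shared region in the window had one of at least 20-fold in both lists within 100 kb. Of genes of matched length, with or without a region in the window, 86.2% had one.

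Distance was examined for the 22 members under 5 kb, counting each region by its midpoint. By midpoint, the 6 regions over these genes and the 8 within 5 kb beside them held none of 20-fold in both lists. The region of Foxl2, whose nearer edge lies 4661 bp from the gene, falls in the next band this way, and by the nearer edge there is 1 within 5 kb. The rate of other genes under 5 kb would give, by midpoint, 0.961 over the spans and 1.95 beside them. At 5 to 20 kb there were 10 gene-region pairs, from 9 distinct regions at 8 genes, against 6.12 at that rate. At 20 to 50 kb there were 15, against 11.9, and at 50 to 100 kb 16, against 19.4. The counts are small, neighbouring members share regions, and the distances were chosen after the values were seen, so this is a description without a test.

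**Figure D5:**
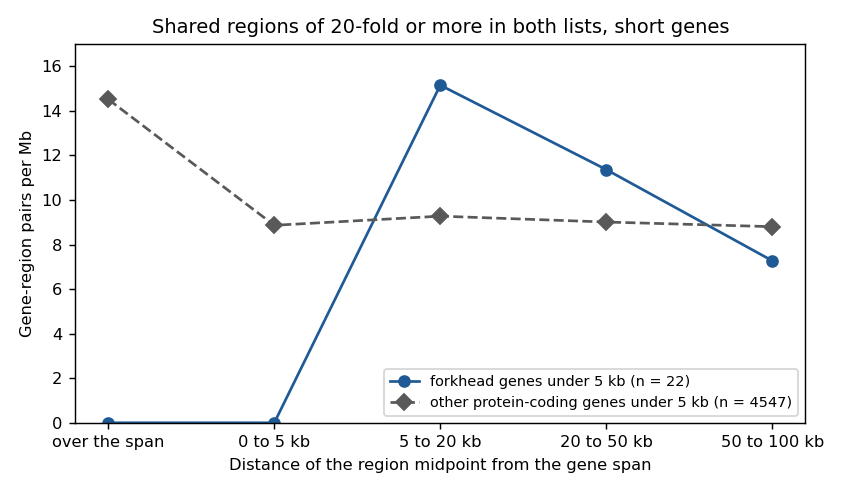
Gene-region pairs per Mb for shared regions of 20-fold or more in both lists, by distance of the region midpoint from the span, for forkhead genes under 5 kb (circles, 22 genes) and other protein-coding genes under 5 kb (diamonds, 4547 genes). By midpoint the forkhead genes have 0 such regions over the span and within 5 kb (the region of Foxl2, with its nearer edge at 4661 bp, counts in the next band), and 15.2 per Mb at 5 to 20 kb, against 9.27 for the others.

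Density over the gene and its wider surroundings differed greatly between members. Counted over the span and 100 kb on either side, shared regions numbered 9.92 per Mb at Foxe3 and 88.3 per Mb at Foxh1. The median was 47.8, against 44.8 for other genes. Below 20 per Mb were Foxe3, Foxd2, Foxl2, Foxb2, Foxp2 and Foxd3, 6 of 38 members, against 8.74% of other genes. At Foxp2 most of the stretch is the gene itself, which held 7 of the 14 regions. Forkhead genes also stood farther from their neighbours, with a median of 13695 bp to the nearest protein-coding gene, against 4821 bp.

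Forkhead genes outside the rule were examined the same way. Foxo1, the atrophy regulator, had 3 shared regions (best 11.0 and 21.0-fold) and Foxo3 had 11 (38.5 and 57.7-fold). Foxo6 had 2 (13.6 and 9.31-fold), and the X-linked Foxo4 and Foxp3 had 1 each (5.14 and 11.7-fold, 8.81 and 7.72-fold). Foxr2, also on X, had a peak of replicate 2 only, so 5 of these 6 genes had a shared region, where matched length gives 4.71.

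Cofactors and targets of forkhead proteins were near shared regions at 12 of 12, where matched length gives 10.9, and each spans 17843 bp or more. Sin3a and Sin3b, scaffolds of the repressor complex of Foxk1, reached 8.45 and 11.1-fold and 41.5 and 43.9-fold. The TGF-beta transducers Smad3 and Smad4 had 11 and 7 regions, with best folds of 35.6 and 42.6, and of 54.0 and 43.9, and Smad2 had 2. The co-repressor genes Tle1, Tle2, Tle3 and Tle4 had 1 to 3 regions each, led by Tle4 (46.3 and 51.3-fold). Ctbp1 had 2 and Ctbp2 had 4. Mef2c, the target of Foxj3, had 6, with folds of 36.0 and 32.4 at best.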

How the data were processed

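The labels put 6 ChIRP-seq samples into odd pool, even pool and input, 2 replicates each. The authors deposited 1 narrowPeak list per replicate. Per the submitters' processing notes, Bowtie2 2.3.2, Picard 2.9.2, MACS2 2.1.1 and mm10 were used; the sources used here do not give each call's treatment, control and threshold. The authors' fold ratio, −log10 q values, display score and summit offset were used as deposited, with no count behind them, so depth and its error are unknown. The score was not used.

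Shared regions were unions of peaks overlapping by at least 1 bp. Genes and promoters came from RefSeq tables of GRCm38.p6, the assembly behind mm10. Region and gene counts used windows of 5 kb either side of the span. Where a share carries an interval, it is the 95% exact (Clopper-Pearson) interval, and other shares are given without one. The background was every other protein-coding gene of chromosomes 1 to 19, also by length class and within 20% of each member's length. No test was run: the lists come from a single condition, and members, role groups and gene lists were chosen with earlier results of these data known. Named genes were the 12 members with the best regions, those with no peak or peaks of 1 list only, the muscle group, members within 100 kb of another, and those nearest to the 5 kb border; further members were named to account for them. For 1 member, which is included in the counts, values are not reported here. The overlap and window code was tested on simulated data. Alternatives varied thresholds, overlap, windows, lists and members. Tables were computed with pandas 2.3.3 and numpy 2.4.6, intervals with scipy 1.17.1 and plots with matplotlib 3.10.9, under Python 3.11.15.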

Additional observations from a re-analysis of the deposited data

How the results depend on the processing

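The count of 26 forkhead genes near a shared region stayed within 1.5 times under most settings. Its lowest value there was 18, with a reciprocal overlap of 50% (47.4%, against 60.4% of other genes and 53.3% of genes of matched length). Its highest was 38, with a window of 50 kb (100%, against 98.2% and 97.8%). It fell to 13 with folds of at least 10 in both lists (34.2%, against 51.0% of other genes and 44.2% of genes of matched length), to 8 among the 30000 strongest peaks of each list (21.1%, against 30.9% and 26.6%) and to 2 among the 10000 strongest (5.26%, against 14.1% and 13.1%); fewer peaks remain under each of these. With only the list of replicate 1 or 2, that is, without replicate 2 or replicate 1, the counts were 31 and 27. These were 81.6% (against 80.6% of other genes and 74.1% of matched length) and 71.1% (against 84.3% and 79.1%). At the gene span alone 21 members had a shared region (55.3%, against 58.1% of other genes and 44.6% of genes of matched length). The share of matched length gives 16.9. With 1 member per cluster 25 of 34 did, and the share of other genes for this was not computed. Alternatives added after the data were seen gave 25 of 38 members with a partnered peak of each list in the window, against 71.8% of other genes. They gave 27 of 38 with any peak of each list, against 77.0%. The median of 1 shared region per member became 0 with a reciprocal overlap of 50% and lay between 1 and 2 for the peaks of a single list. The count of 8 of 24 members with a region near the start was 13 of 24 within 5 kb of it, and 8 to 10 in a single list. The shares of other genes under these settings were not computed, so the counts cannot be set against a background. The partnered shares fell to 34.4% and 31.8% with a reciprocal overlap of 50%, where all peaks gave 42.0% and 36.3%. Of 93 best folds of single genes recomputed over the span alone or with unpartnered peaks allowed, 8 moved by over 1.5 times, at Foxe1, Foxf1, Foxj3, Foxp4 and Foxs1. Measured from the nearer edge in place of the midpoint, an alternative also added after the data were seen, the strong regions of short members numbered 1 in place of 0 within 5 kb and 10 under both at 5 to 20 kb. No paired analysis was possible because each deposited list pools the samples of its replicate and no result comes from a test. Read depth was not available to set a detection limit.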
